A study of Mus musculus with 24 samples.

Results

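Agilent's mouse array carries, beside probes for known transcripts, 16194 probes that are named by a genomic interval and not by a transcript. Of these region probes, 3019 (18.6%) had a signal well above background in liver, brain, heart and muscle alike, on all 24 arrays, and they are described here. The members were chosen by the measured detection flag: a region probe belonged if the scanner program marked the majority of its spots as well above background on every array. Detection is therefore a description and was not tested. The intervals are on the mouse build mm9, on which the array was designed. The files pair a region probe with its interval alone, so that the words intergenic and non-coding could not be checked against a gene annotation of that build.

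The arrays came from 6 female mice aged 14 or 15 months, 3 of them wild type (WT) and 3 carrying the knockin (KI) mutation I312R in Rap1, a subunit of the shelterin complex at telomeres. The KI allele was made with Crispr/Cas9 from a single guide and donor oligonucleotide, and the line had been backcrossed to C57BL6 mice, C57BL/6N in the study's methods. The labels state neither zygosity nor which muscle was taken, but the study's text describes the KI mice of its array comparisons as homozygous. Each mouse gave all 4 tissues, which makes 8 groups of 3 arrays. The letters A to C name the KI animals here and D to F the WT animals. One animal of each genotype, C and F, was aged 14 months, and the remaining 4 were aged 15 months. The question put to the region probes was whether their signal differed between tissues and whether the RAP1 mutation, which keeps the protein from binding its shelterin partner TRF2, went with a difference.

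Mammalian cells transcribe much of the genome outside protein-coding exons. Such RNA includes long intergenic non-coding RNAs, unannotated ends of genes, transcripts from enhancers and transcripts that run opposite to a gene. Long non-coding RNAs as a class are known to be less abundant and more tissue-restricted than messenger RNAs, and the brain is known for a large variety of them. Probes that hybridise in every tissue are thus a particular slice of this output: a region transcribed in 1 organ alone could not enter the set.

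Values are given as levels: the processed signal on the log2 scale, less that array's 75th percentile, so that a level of 0 equals the 75th percentile. Probes differ in how strongly they bind, so a difference in level between probes describes their signals and not amounts of RNA, and brightness serves here only to choose probes to describe. That percentile corresponded to signals of 312.4 to 2510.4, depending on the array. Per array, 49.4% to 68.4% of all probes passed as well above background. Marker lists of 10 genes each for the 4 organs were highest in the organ named on the label. On 4 arrays a list stood apart from the other arrays of the organ. The brain of KI mouse C had a mean level of 4.29 for the liver list against a brain median of -1.90, and the liver of KI mouse C had 1.16 for the skeletal muscle list against a liver median of -5.16. The heart of KI mouse B had 8.20 for the heart list itself against a median of 6.53 and 1.58 for the fat list against -0.24, and the muscle of KI mouse B had -0.71 for the mammary epithelium list against a median of -4.03 and 4.20 for the fat list against 3.24. Counts without these 4 arrays stand beside those with them. In such bulk samples fewer cells of a type and less RNA per cell cannot be told apart.

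The members made up a small share of the region probes but were the largest detection class after silence. No signal well above background on any array was found for 3787 region probes (23.4%), and 9388 were well above background on 1 to 23 arrays. Of the 39487 other probes, most of them for named transcripts, 18614 (47.1%) were well above background on all 24 arrays. Liver and muscle set the limit. In liver 4029 region probes were well above background on all 6 arrays, of which the members are 74.9%, and in muscle 4255, of which they are 71.0%. Brain had 5694 such probes and heart 5454, of which the members are 53.0% and 55.4%.

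**Figure D1:**
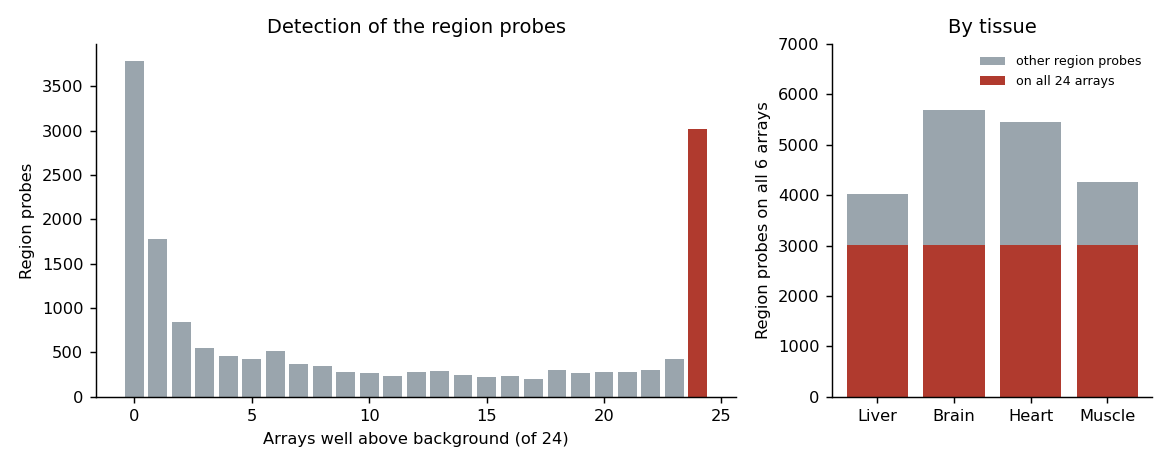
Left, number of region probes (y axis) by the number of arrays on which they were well above background (x axis). The bar at 24 holds the 3019 members and the bar at 0 the 3787 undetected probes. Right, number of region probes well above background on all 6 arrays of each tissue, with the 3019 members as the lower, darker segment of each bar: liver had the fewest (4029) and brain the most (5694).

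Missing a single array kept some probes out. Another 424 region probes missed a single array, which was the liver of KI mouse C for 120, the liver of WT mouse E for 77 and the muscle of KI mouse A for 43. The dimmest member by mean level was a probe of chr16:93121505-93142255 (R), with tissue means of -5.05 in brain, -4.28 in heart, -3.90 in muscle and -3.86 in liver. Next came chr3:37543528-37546874 (F) and chr13:65610375-65634500 (R), both with their lowest tissue mean in brain, at -5.45 and -4.98. Of the probes that missed a single array, those of highest mean level are named next. That choice favours probes that are bright elsewhere. A probe of chr3:137742666-137744470 (F) had mean levels of 5.58 in muscle and 3.73 in heart, and fell out through the liver of WT mouse E at -5.58. Similarly, chr17:32035750-32056000 (R), at 4.44 in liver, was lost through the brain of WT mouse D at -6.59, and chr9:78104935-78116974 (F), at 5.22 in liver, through the muscle of WT mouse E at -4.29. Their tissue means ranged by 10.41, 9.62 and 8.51, while the widest range within the set was 11.19.

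The 3019 probes lay in 1479 of the 3543 intervals on the array. These intervals had a median length of 11776 bp (104 to 533972 bp), against 3555 bp for the 2064 intervals without a member. A name ends in F or R, and its meaning is not given in the sources used here; 1460 members ended in F, 1556 in R and 3 in neither. One member alone represented 810 intervals, 279 held 2 members, and 390 held at least 3. In 158 intervals with several probes every probe was a member. The intervals are not all separate: 624 of them overlap another on the genome, so members of different names can lie in the same stretch; whether their probe sequences overlap was not tested. By chromosome, the share of region probes that were members ran from 12.5% on chromosome 9 to 24.7% on chromosomes 14 and 17, with 14.0% on the X chromosome.

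Most members were modest signals. Their mean level over all arrays ran from -4.27 to 7.98 with a median of -1.60, and 718 (23.8%) lay above the 75th percentile of the array, compared with 11711 (62.9%) of the other probes detected on all 24 arrays. The brightest region was chr17:17481706-17482457 (R), an interval of 752 bp whose 3 probes were all members and all among the 10 brightest. In the brightest of them the level ran in liver from 8.05 through a median of 8.32 to 8.53, in brain from 6.82 through 6.94 to 7.06, in heart from 7.97 through 8.16 to 8.25 and in muscle from 8.39 through 8.55 to 8.60. Every brain array lay below every array of the other 3 tissues. The other 2 probes of the interval were also lowest in brain and highest in muscle, with brain means of 6.47 and 5.91 and muscle means of 8.14 and 7.61.

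The other 7 of the 10 brightest members came from 7 intervals and had their lowest mean in brain or, in a few, in heart or liver. A probe of chr14:78924115-78938125 (F) had mean levels of 8.42 ± 0.29 in muscle and 6.85 ± 0.26 in brain (SD, n = 6). The probe of chr11:22681800-22707775 (R) had 7.47 ± 0.12 in muscle, 7.46 ± 0.22 in liver and 6.18 ± 0.14 in brain (SD, n = 6), so that liver and muscle did not differ beyond their spread. At chr7:108209996-108216032 (R) muscle reached 7.69 ± 0.13 and brain 6.55 ± 0.17 (SD, n = 6). Heart was lowest at chr6:83368261-83407280 (F), with 7.02 ± 0.35, and at chr12:73838608-73862621 (R), with 6.62 ± 0.36, but brain, at 7.08 ± 0.16 and 6.77 ± 0.16, lay within that spread (SD, n = 6). The last pair favoured the striated muscles. At chr19:5801802-5802597 (R) muscle had 7.99 ± 0.59 and heart 7.58 ± 0.12 against 6.30 ± 0.29 in liver, and at chr4:33364774-33364898 (R) heart had 7.68 ± 0.23 and muscle 7.67 ± 0.12 against 5.93 ± 0.16 in brain (SD, n = 6).

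Across the whole set, members were lowest in brain. The median level of the members was -2.09 ± 0.10 in brain, -1.54 ± 0.14 in liver, -1.43 ± 0.08 in heart and -1.28 ± 0.07 in muscle (mean ± SD of 6 array medians). Every brain array, from -2.17 to -1.90, lay below every array of the other tissues, of which the lowest was -1.70 in liver. Brain had the lowest tissue mean for 1798 members (59.6%), compared with 8865 (47.6%) of the other probes detected on all 24 arrays. The highest tissue was muscle for 1105 members (36.6%), liver for 958 (31.7%), heart for 644 (21.3%) and brain for 312 (10.3%). Among the other probes brain was highest for 17.5%.

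Scaling bears on these levels, since a shift of all probes in a tissue moves them too. Taken relative to the other probes detected on all 24 arrays, the members' median in brain was 0.45 lower than the mean of the other 3 tissues. A change of percentile shifts all probes of an array alike and cannot move this value. It was 0.50 lower under normexp background correction and 0.56 lower under quantile normalization. The other probes themselves were 0.23 lower in brain under the scaling used. They were 0.20 higher when the percentile was taken over the probes detected on all arrays. Brain was most often lowest under every scaling and background correction tried (1256 to 2023 members). The tissue most often highest was muscle except under quantile normalization, which gave liver (1073 members). Signal strength went with the pattern too. Brain was lowest for 75.5% of the 755 dimmest members and for 52.3% of the 755 brightest. The faintest level that passed as well above background was also lowest on the brain arrays (-6.93 to -5.55), with liver at -6.05 to -4.32 and heart at -5.80 to -4.93, which overlap brain, and muscle at -4.63 to -4.12, which does not. Its part in the result was not tested.

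Tissue differences were general but mostly moderate in size. The range between the highest and lowest tissue mean had a median of 1.64 over the members, and was 1.79 for the other probes detected on all 24 arrays. Ranges above 4 were found for 146 members (4.84%) and for 12.2% of the other probes, whereas ranges under 0.5 were about as frequent in both, with 109 members (3.61%) and 3.57%. Within the members the median range rose with signal, from 1.43 in the 755 dimmest to 1.86 in the 755 brightest. The part of signal strength in the comparison with the other probes was not tested. In limma, the moderated F-test on the 24 arrays called a tissue difference for 2908 members (96.3%) at an adjusted p under 0.05. That share is near the background, since 96% of all 37522 probes tested and 97.6% of the other probes detected on all arrays were called. Without the 4 arrays that stood apart by marker lists the count was 2845.

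Members with a clear leading tissue were the minority. A probe was called tissue-led if its tissue exceeded each of the others by at least 1 on the log2 scale with every limma adjusted p under 0.05, and striated-led if heart and muscle both exceeded liver and brain in that way. By this rule 890 members (29.5%) had a class, and 2129 had none. Liver led for 293 members (9.71%) in 224 intervals, against 12.4% of all probes tested and 12% of the other probes detected on all arrays. Brain led for 85 (2.82%) in 61 intervals, against 13.5% and 6.66%. A probe without signal outside brain could not be a member, and the other probes of the 6.66% were held to the same rule of detection on all arrays. The members were dimmer, however, with a median level of -1.60 against 0.89 for those other probes. The part of the detection rule in the brain-led share was not tested.

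Among the contractile tissues, muscle alone lay slightly above both backgrounds, and heart lay below both. Muscle led for 234 members (7.75%) in 160 intervals, against 6.61% of all probes tested and 6.52% of the other probes detected on all arrays. Both striated muscles led for 250 (8.28%) in 149 intervals, against 8.42% and 7.21%, and 27 of these also counted as muscle-led and 8 as heart-led. Heart alone led for 63 (2.09%) in 51 intervals, against 4.34% and 3.06%. Without the 4 arrays the counts were 259 for liver, 85 for brain, 70 for heart, 265 for muscle and 253 for both striated muscles. RNA of brain and liver was extracted with one kit and RNA of heart and muscle with another, so kit and tissue cannot be told apart in the contrast of the striated muscles with the other tissues.

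**Figure D2:**
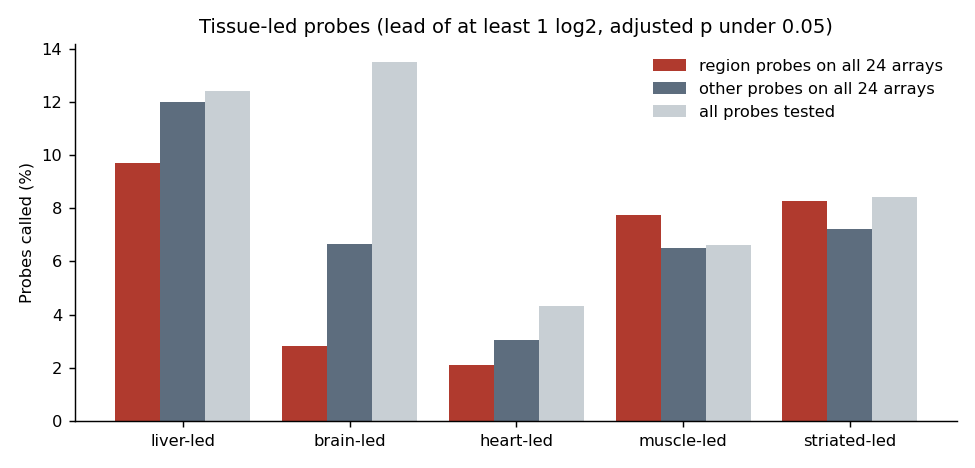
Share of probes called in each tissue class (y axis, percent) for the 3019 region probes detected on all 24 arrays, the 18614 other probes detected on all 24 arrays and all 37522 probes tested. The brain-led share of the region probes (2.82%) is the one farthest below both of the other bars, and the muscle-led share (7.75%) is above both.

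The largest lead of any member was in muscle. The probe of chr11:53592946-53637922 (F) had muscle levels from 4.11 through a median of 4.43 to 4.60. It ran from -2.36 through -2.11 to -1.38 in liver, from -2.58 through -2.39 to -2.17 in brain and from -2.90 through -2.60 to -2.24 in heart. The muscle arrays thus stood apart from an even, low level in all other tissues, by 6.35 over the next tissue (limma adjusted p = 6.96e-16). The same interval also held a liver-led member, so that its probes did not share 1 pattern. At chrX:157038750-157039018 (F), an interval of 269 bp, muscle had 7.29 ± 0.34 and heart 1.97 ± 0.46, against -3.36 ± 0.65 in liver and -3.91 ± 0.44 in brain (SD, n = 6). This graded probe led in muscle by 5.32 over heart and is striated-led as well, since heart in turn exceeded liver by 5.33. The next muscle-led probes lay at chr14:43929100-43945100 (R), with 4.05 ± 0.41 in muscle and at most -1.15 ± 0.49 elsewhere, and at chr1:84947500-85045150 (R), with 2.91 ± 0.46 and at most -2.14 ± 0.33 elsewhere (SD, n = 6).

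Both striated muscles were high together at chr17:12941161-12944859, one of the 3 members without a suffix. The level ran in heart from 2.40 through a median of 2.53 to 2.61 and in muscle from 1.29 through 1.84 to 2.03. In liver it ran from -2.89 through -2.21 to -1.77 and in brain from -2.54 through -2.28 to -1.90. Heart and muscle exceeded the other pair by at least 4.01 (limma adjusted p = 2.42e-13), and no array of one pair overlapped the other pair. A probe of chr1:183951156-183986156 (F) was also high in both striated muscles, with far more spread, at 1.77 ± 0.95 in muscle, 1.12 ± 0.77 in heart, -2.76 ± 1.41 in liver and -3.16 ± 1.21 in brain (SD, n = 6). A last striated-led probe named by the rule, on chromosome 18, had 1.92 ± 0.28 in heart and 1.51 ± 0.18 in muscle against -2.33 ± 0.42 in liver and -2.82 ± 0.27 in brain (SD, n = 6), and all 3 probes of its name were members.

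Liver-led members reached high levels. The probe of chr6:145936225-145965575 (R) had liver levels from 5.44 through a median of 5.90 to 6.21, heart levels from 1.09 through 1.40 to 1.74, brain levels from 0.34 through 0.69 to 1.01 and muscle levels from -0.71 through -0.25 to 0.00. The arrays of the 4 tissues did not overlap, and liver led by 4.49 (limma adjusted p = 6.68e-15). At chr11:117792051-117811334 (R) liver had 4.63 ± 0.23 and brain followed at 0.27 ± 0.23, with muscle at -1.67 ± 0.16 and heart at -1.97 ± 0.38 (SD, n = 6). The other tissues were nearly even at chr4:129376440-129391690 (R), between -3.10 ± 0.52 and -2.85 ± 0.39 against 1.51 ± 0.44 in liver, and at chr9:14460976-14488051 (F), between -2.73 ± 0.79 and -2.32 ± 0.14 against 1.97 ± 0.16 in liver (SD, n = 6). On the liver array with skeletal muscle transcripts, that of KI mouse C, the 234 muscle-led members deviated from the liver mean by a median of 0.10 and all members by 0.05. On the brain array with liver transcripts, also of mouse C, the 293 liver-led members deviated by -0.01 and all members by -0.02.

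Brain-led members were few but their leads were as large. A second probe of chr16:93121505-93142255 (R), the interval that also holds the dimmest member, had brain levels from 0.84 through a median of 1.52 to 2.24. It ran from -3.04 through -2.83 to -2.73 in liver, from -3.55 through -3.30 to -2.98 in heart and from -3.49 through -3.12 to -2.99 in muscle. Brain led by 4.42 (limma adjusted p = 1.64e-14), and no other tissue came near. At chrX:91000651-91005855 (R) brain had 2.41 ± 0.15, heart -1.91 ± 0.39, muscle -2.13 ± 0.33 and liver -4.04 ± 0.13 (SD, n = 6). Brain also led at chr19:19005109-19008657 (R), with 2.53 ± 0.20 against at most -1.22 ± 0.35, and at chr14:65205076-65219432 (R), with 1.25 ± 0.34 against at most -2.39 ± 0.20 (SD, n = 6). Of all 85 brain-led members, 44 ended in F and 41 in R.

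Leads in heart were the smallest of those named. The probe of chr9:27153416-27153677 (F), 262 bp long, had heart levels from 1.37 through a median of 2.0 to 2.20, liver levels from -1.65 through -1.23 to -0.80, brain levels from -3.46 through -2.88 to -1.97 and muscle levels from -2.21 through -1.85 to 0.28. Heart led by 3.13 (limma adjusted p = 7.4e-08), and the highest muscle value was the array of KI mouse B. The same muscle array was highest at chr15:61984389-62102500 (R), where muscle ran from -3.62 to -0.17 and heart from 0.48 to 1.44. It was highest again at the fourth heart-led probe, on chromosome 18, where muscle ran from -1.77 to 1.57 and heart from 2.23 to 3.38. Over all 63 heart-led members that array deviated from the muscle mean by a median of 0.16 and over all members by -0.08, a difference of 0.24. Arrays on which no list stood apart came near this. The difference was 0.22 on the liver array of WT mouse F and 0.20 on the brain array of WT mouse D. The muscle array of KI mouse B is the one with the raised fat and mammary lists. The fat list ran from 1.87 to 4.20 over the muscle arrays, with 9 of its 10 genes detected on all 6, and the mammary list from -4.17 to -0.71, with 4 of 10 detected on all 6 and 2 on none. Their part in these values was not tested. At chr10:69819062-69871640 (F), heart itself varied most, from -1.81 through -0.27 to 1.13, and muscle did not exceed -2.79.

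**Figure D3:**
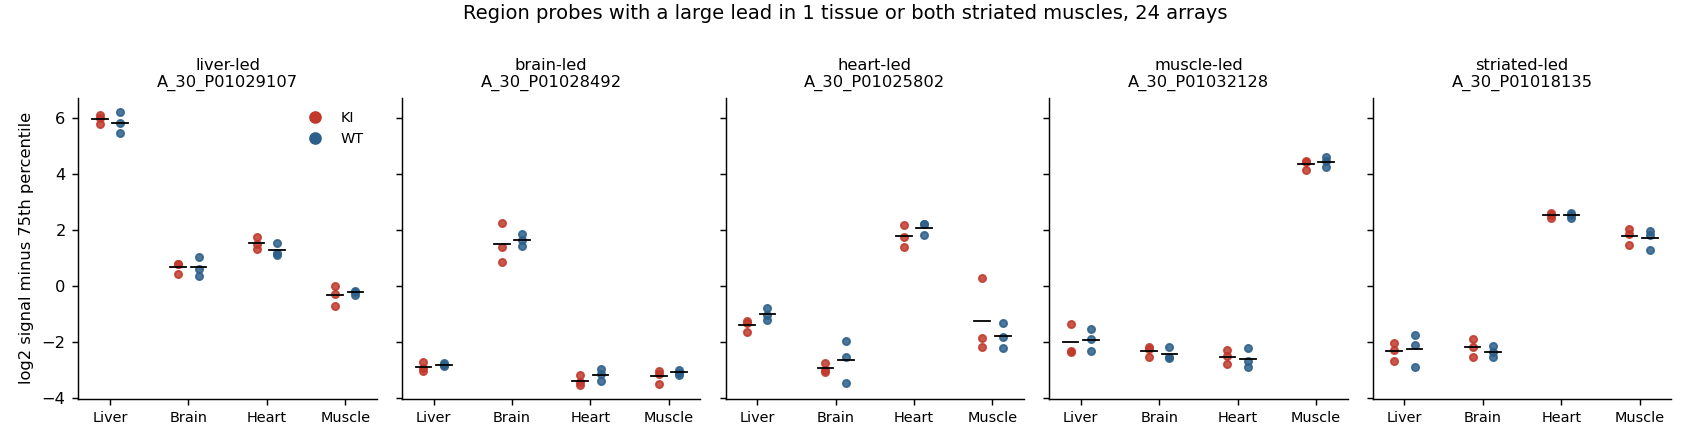
Level (log2 signal minus the array's 75th percentile, y axis) on all 24 arrays of 5 region probes with a large lead, 1 panel each, by tissue (x axis), with KI and WT arrays side by side and the mean of 3 as a line. Panels show the largest liver, brain, heart and muscle leads (4.49, 4.42, 3.13 and 6.35) and the striated-led probe with a lead of 4.01; KI and WT points overlap in the leading tissue of each.

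Even levels across organs were rarer than leads. The member with the smallest range was a probe of chr2:35829956-35830757 (R), whose tissue means of -2.88 ± 0.18 in brain, -2.89 ± 0.35 in liver, -2.84 ± 0.29 in muscle and -2.84 ± 0.11 in heart differed by less than the spread within any tissue (SD, n = 6). The probe of chr9:95295459-95301266 (F) lay between -2.32 ± 0.11 in brain and -2.19 ± 0.12 in muscle, and that of chr13:70745306-70837331 (F) between -1.91 ± 0.43 in liver and -1.78 ± 0.20 in muscle (SD, n = 6). At chr5:113609906-113622032 (R) the means lay between -2.52 ± 0.16 and -2.38 ± 0.18. The fifth, of chr17:26911032-26912366 (F), had -0.65 ± 0.23 in muscle and -0.51 ± 0.07 in brain (SD, n = 6). Its interval overlaps chr17:26911397-26917047, chosen after its values were seen. There 10 of 20 probes, all F, were members, with ranges between 0.19 and 0.64. The mean of these 10 probes was 2.23 ± 0.14 in brain, 2.23 ± 0.08 in heart, 2.12 ± 0.12 in muscle and 1.88 ± 0.20 in liver (SD, n = 6), so that a stretch of 5651 bp gave close levels in all 4 organs and its lowest in liver.

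Probes of the same region tended to share their tissue pattern when they shared a name. Over 2349 pairs of members with the same name, in 590 intervals, the correlation of levels across the 24 arrays had a median of 0.88, and 68.9% of pairs were highest in the same tissue. Pairs in the same interval with opposite suffixes, 1294 in 269 intervals, had a median of 0.44 and 41.8%, and 26.0% of them correlated below 0, against 8.81% of the same-name pairs. For pairs from different intervals the median was 0.22 and the share 29.0%. The points of each correlation are the same arrays of 6 mice, and pairs of the same interval are not independent, so no test was made. The rule for naming also picked intervals by the difference in mean level between their probes, and that difference is not read as one between regions. In the 4 picked for the smallest difference the correlation was 0.99 at chr1:193923014-193923346, 0.95 at chr1:85117750-85129200 and 0.99 at chr8:72663591-72671154. At chr5:92556322-92558910 it was 0.27, and there one probe was lowest in brain and the other in liver. In the 4 picked for the largest difference the median correlation was 0.31 at chr14:78924115-78938125, 0.56 at chr11:22681800-22707775, 0.62 at chr2:168804720-168854970 and 0.31 at chr6:83368261-83407280.

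A few intervals showed these relations over many probes. This and the following intervals were chosen after their values were seen. In chr11:95627874-95640824, 15 of 19 probes were members and muscle was highest in all 15. The mean of its 8 F probes ran in muscle from 2.43 through a median of 2.87 to 3.21, in heart from 0.98 through 1.11 to 1.25, in liver from 0.52 through 0.71 to 0.77 and in brain from -0.25 through -0.18 to -0.01. The mean of its 7 R probes ran in muscle from 0.00 through 1.57 to 2.01 and in liver from -1.92 through -1.31 to -0.36. Muscle therefore led on both suffixes, but brain was lowest on all 8 F probes and liver on all 7 R probes. In chr16:43623581-43642715, also with 15 members, heart was highest in 14 and brain lowest in all 15.

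Opposite patterns within an interval were clearest at chr5:35975265-35982561, where all 8 probes were members. The mean of its 4 F probes ran in brain from 2.92 through a median of 3.44 to 3.58 and in liver from -1.37 through -1.03 to -0.27. The mean of its 4 R probes ran in brain from -0.27 through -0.04 to 0.17 and in liver from 3.26 through 3.46 to 3.96, with heart at 3.21 through 3.73 to 4.03. The F probes exceeded liver in brain by 3.86 to 4.62, and brain minus liver was -4.23 to -2.91 for the R probes, so the arrays of these organs did not overlap in either direction. The median correlation over the pairs of this interval was -0.74. A smaller case of the kind was chr8:119090566-119097735, with 7 of 10 probes as members. Its 5 R probes were all highest in brain, with a mean of 0.15 ± 0.18 there against -1.67 ± 0.20 in liver, while its 2 F probes were lowest in brain, with -0.95 ± 0.12 (SD, n = 6). In all, 35 intervals held members of different tissue classes.

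**Figure D4:**
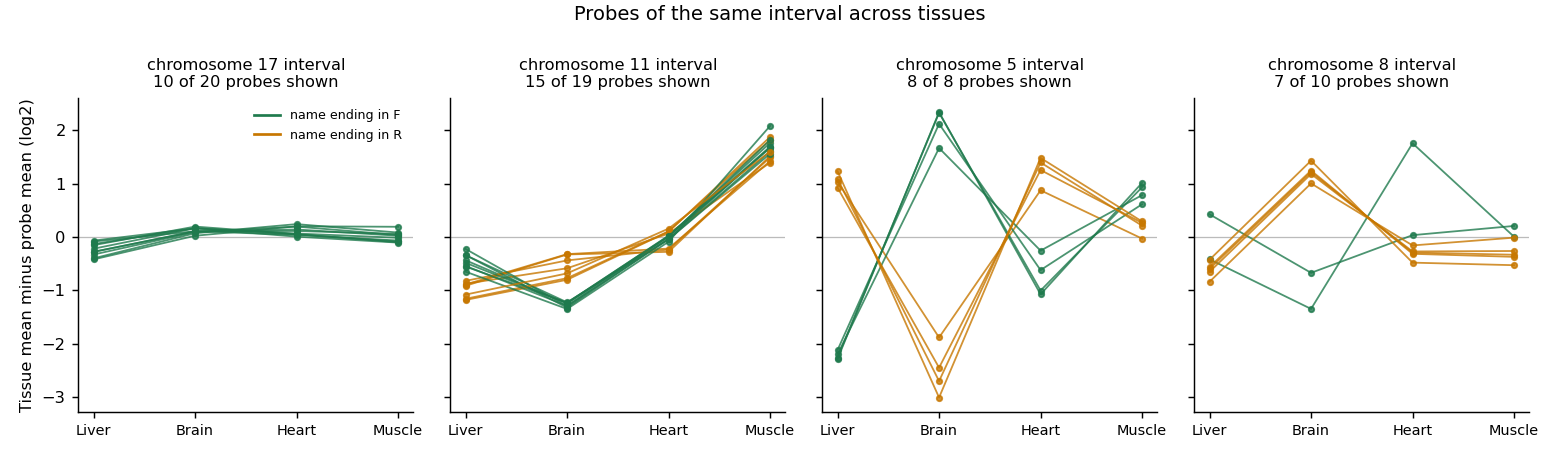
Tissue means of each member probe minus the mean of its 4 tissue means (y axis, log2) by tissue (x axis) in 4 intervals, with 1 line a probe and the colour showing whether its name ends in F or R. The lines of the chromosome 17 interval lie within 0.42 of 0, the 15 of the chromosome 11 interval all peak in muscle, the F and R lines of the chromosome 5 interval cross with brain highest for F and lowest for R, and the R lines of the chromosome 8 interval peak in brain.

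Long non-coding RNA genes with a symbol gave a frame of reference. Of a list of 47, 31 had a probe and 25 were detected on all 24 arrays. Their median range between tissues was 1.81, against 1.79 for the other probes detected on all 24 arrays and 1.64 for the members. Brain was lowest for 12 of the 25, against 47.6% of those other probes and 59.6% of the members. Muscle was highest for 10, brain for 6, liver for 5 and heart for 4. H19, an imprinted RNA known from fetal and muscle tissue, ranged by 11.16 between muscle and brain, and the widest range of a member was 11.19. Meg3, an imprinted RNA known from brain, was at 4.77 in brain and -2.37 in liver. Malat1 and Neat1, nuclear RNAs found in most cell types, were both highest in muscle.

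No member passed the test for genotype. In limma fits within each tissue, for the mean of a mouse's 4 tissues and for genotype by tissue, 0 of 3019 members had an adjusted p under 0.05, as did 0% of all probes tested in each of these 6 tests. At an unadjusted p under 0.05 there were 193 members (6.39%) in liver, against 8.94% of all probes tested. Brain had 8 (0.265%, against 1.01%), heart 26 (0.861%, against 1.75%) and muscle 41 (1.36%, against 1.55%). The mean of 4 tissues gave 85 (2.82%, against 3.76%) and genotype by tissue 45 (1.49%, against 2.1%). In none of the 6 was the members' share above that of all probes. With 3 arrays against 3 an exact permutation test of a single probe cannot go below a two-sided p of 0.1.

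Among members at an unadjusted p under 0.05, most differences were negative. This split, and the counts below with an array left out, were made for members alone. They have no share over all probes beside them and are not read as particular to the members. In liver 127 of the 193 were lower in KI and 66 higher, and the median of KI minus WT was -0.11 over the members and 0.00 over all probes tested. The liver array medians overlapped: -1.58, -1.67 and -1.50 in KI mice A, B and C, and -1.70, -1.47 and -1.31 in WT mice D, E and F. The highest of them was WT mouse F. Leaving that array out gave 98 members at an unadjusted p under 0.05, whereas leaving out WT mouse E gave 348. In brain the median of KI minus WT was -0.04 over the members and -0.04 over all probes tested, in heart 0.00 and -0.05, and in muscle -0.05 and -0.01. Normexp background correction put the liver median at -0.02 over the members and 0.04 over all probes tested, and the members' brain median at 0.00. Quantile normalization gave liver medians of -0.10 and -0.01. The 75th percentile over probes detected on all arrays gave -0.13 and -0.02. The counts at an unadjusted p under 0.05 also moved with single arrays outside liver. They ran from 9 to 62 in brain (without WT D and without WT E) and from 13 to 123 in heart (without WT D and without KI C). In muscle they ran from 16 to 83 (without WT E and without KI C). For the mean of 4 tissues they moved from 44 without WT mouse F to 102 without KI mouse A.

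Members whose KI and WT arrays did not overlap were found in every tissue. All 3 KI arrays lay on one side of all 3 WT arrays for 328 members in liver (10.9%, against 16.8% of all probes tested), 77 in brain (2.55%, against 3.26%), 111 in heart (3.68%, against 5.52%) and 161 in muscle (5.33%, against 4.8%). Such separation in the same direction in at least 2 tissues was found for 42 members (1.39%, against 1.31% of all probes detected on all 24 arrays), and in at least 3 tissues for 0, against 0.0647%. Opposite directions in a pair of tissues were found for 20 (0.662%, against 0.8%).

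The smallest genotype p among members was that of a liver probe of chr2:155269145-155303251 (F). Its liver levels were -3.36, -2.91 and -2.86 in KI mice A, B and C and -1.58, -1.92 and -1.80 in WT mice D, E and F. The groups did not overlap and KI was lower by 1.27 (KI minus WT -1.27, SE 0.19, n = 3 per group, limma unadjusted p = 0.000362), but the adjusted p was 0.543. The 7 other members of the interval were all lower in KI liver, by -0.93 to -0.10, and 2 of them had an unadjusted p under 0.05. In heart the same probe did not differ by more than 0.01, and in brain and muscle KI minus WT was -0.38 and -0.55. It was also among the 3 smallest p for the mean of 4 tissues. The next liver probes were chr1:167797581-167803031 (R), at -2.43, -2.97 and -2.80 in KI and -3.71, -3.92 and -4.09 in WT, and chr17:6265275-6362150 (F), at -2.48, -2.40 and -2.51 in KI and -1.79, -1.81 and -1.68 in WT. Neither interval had another member.

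Outside liver the leading probes were weaker. In brain, chr19:5834117-5835940 (R) was at -3.88, -3.84 and -3.66 in KI mice A, B and C and at -2.83, -3.61 and -2.93 in WT mice D, E and F, groups that lie 0.06 apart at their nearest. The 2 other members of that name were also lower in KI brain, by -0.40 and -0.31, with neither at an unadjusted p under 0.05. The brain probes of chr14:8596455-8609805 (F) and chr2:176784125-177183100 (F) had KI minus WT of -0.46 and -0.36. In heart, chr13:22110479-22116629 (R) was at -3.59, -3.07 and -3.70 in KI and -2.10, -2.51 and -2.39 in WT, a difference of -1.12 (SE 0.21, n = 3 per group, limma adjusted p = 0.997). The heart probes of chr14:30758342-30759669 (R) and chr8:122920901-123008463 (F) had KI minus WT of -0.66 and -0.67, but of the 5 other members of the latter interval 2 were lower and 3 were not.

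In muscle, chr1:90340543-90359181 (R) was at -3.43, -3.45 and -3.40 in KI and -2.72, -2.85 and -2.91 in WT, a difference of -0.60 (SE 0.15, n = 3 per group, limma adjusted p = 1). It was followed by chr6:149307300-149322900 (R), with -0.73, and chr12:110909258-110913909 (F), with -0.81. For the mean of 4 tissues, chr5:22801058-22939737 (F) had 0.07, 0.35 and 0.70 in KI mice A, B and C and -0.74, -0.69 and -0.78 in WT mice D, E and F, a difference of 1.11 (SE 0.16, n = 3 per group, limma adjusted p = 0.994). That difference lay in a few low WT arrays of liver and brain. In liver the probe was at -4.11 in WT mouse D and -3.21 in WT mouse F but 1.96 in WT mouse E, and in brain at -4.45 in WT mouse E, while heart and muscle differed by -0.08 and -0.07. The 3 other members of its interval went the other way, by -0.18 to -0.12. The probe of chr12:110894095-110899517 (F), at 1.03 ± 0.25 in brain and between -3.16 ± 0.25 and -2.60 ± 0.91 elsewhere (SD, n = 6), had a difference of -0.60 in the mean of 4 tissues.

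**Figure D5:**
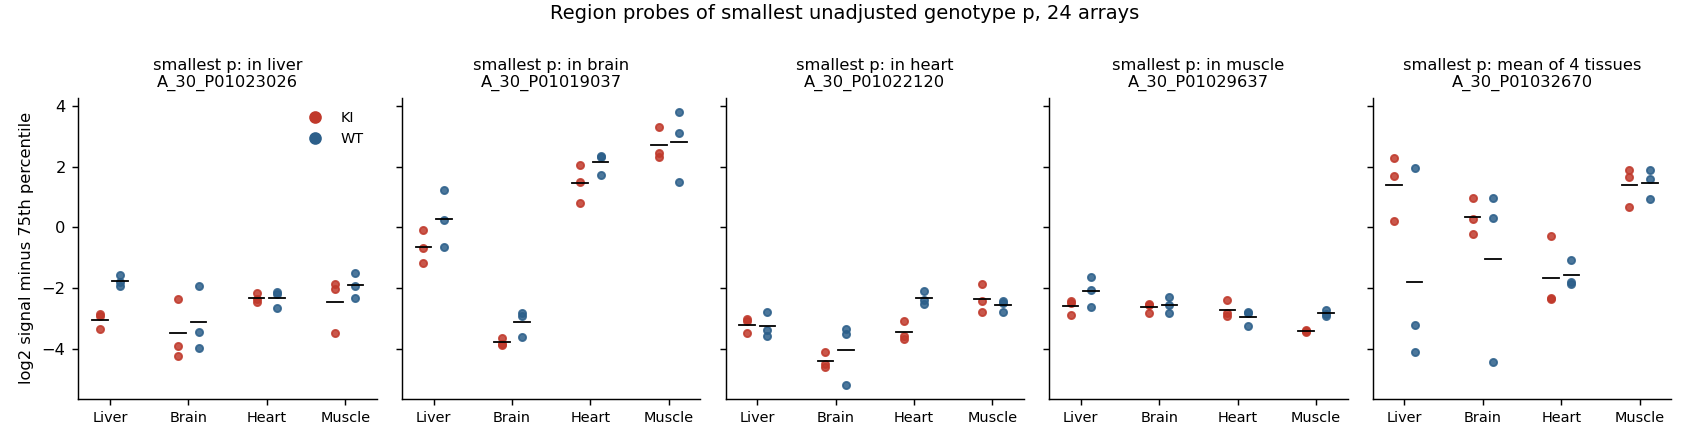
Level (log2 signal minus the array's 75th percentile, y axis) by tissue (x axis) on all 24 arrays of the 5 region probes with the smallest unadjusted genotype p in each tissue and in the mean of 4 tissues, KI and WT side by side with the mean of 3 as a line. In the panel for liver the KI points lie at -3.36 to -2.86 and the WT points at -1.92 to -1.58. In the panel for the mean of 4 tissues the WT liver points spread from -4.11 to 1.96.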

How the data were processed

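The members, lists and tests were chosen with earlier results of these data known. Per the labels, Cy3-labelled cRNA of each sample was hybridised to 1 array. The authors scanned the arrays and deposited spot intensities from Agilent Feature Extraction 12.0.3.1. The processed signal intensity is corrected for background and not yet scaled between arrays. The deposited score table (z-scores of 33912 features) held 0 of the 16194 region probes and was not used. Each array had 59305 spots that were no controls. Outlier spots (121 to 347 an array) were left out, 0 spots were saturated, and repeated spots were averaged, leaving 55681 probes. The number of arrays limits the precision.

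Levels are log2 processed signals less the 75th percentile of that array. Tests used limma 3.58.1 (lmFit, eBayes, two-sided) in R 4.3.3 on every probe detected (well above background) throughout at least 1 group of 3, with Benjamini-Hochberg adjustment over all of them at 0.05, and Python 3.11.15 elsewhere. All 3019 members passed that filter in every fit, through the rule that chose them. Tissue means average both genotypes. Fits were also run on simulated data with independent errors on each array. These held no mouse or slide effects, so they cannot test the fits for those. Named probes are the 10 brightest, 4 largest leads a class, 5 most even, 3 smallest genotype p a test and 3 dimmest members. Beside them stand the 3 brightest region probes that missed a single array. Intervals were picked by the smallest and largest difference in mean level between their probes.

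Each of 3 slides held 8 arrays. Liver shared a single slide, as did muscle, while brain and heart arrays each lay on a pair of slides. Slide and tissue can therefore not be fully told apart in the contrasts of liver or muscle with other tissues. Same-numbered arrays came from the same mouse, so numbers pair arrays across tissues. Deviations from group means correlated by 0.0075 for arrays of the same animal and by -0.0031 for arrays of different animals of a genotype, with a consensus of -0.015. Alternatives covered normexp background correction (offset 50), quantile normalization, a 75th percentile over detected probes, the detection rule, the filter on dim probes, the mouse and the slide as terms, single arrays left out and a lead of 2. Leaving out the 4 arrays that stood apart by marker lists was added after the data were seen.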

Additional observations from a re-analysis of the deposited data

How the results depend on the processing

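Of 364 alternatives to the counts and summary values, 354 were scored as kept and 10 as moved. Kept does not mean unchanged, since a count could differ within a margin. The 3443 members given by detection on at least 23 of 24 arrays, against 3019, were scored as kept. The 364 also include 104 genotype counts that were 0 throughout, where only the absence of a call was kept. The number kept is therefore no measure of how stable the sizes are. The 10 that moved are given next. Normexp background correction gave 41 heart-led members and a median range between tissues of 1.45. With the 75th percentile over probes detected on all arrays there were 95 heart-led and 145 brain-led members and a median range of 1.47. A lead of at least 2 left 79 liver-led, 29 brain-led, 10 heart-led, 41 muscle-led and 44 striated-led members, fewer by construction. Otherwise the cause was not tested. Detection on at least 23 of 24 arrays gave 3443 members, and without the brain of KI mouse C 3020. Leaving out single arrays gave 3019 to 3139 members, a median range of 1.62 to 1.67, 2881 to 2919 members called by the tissue F-test, and 283 to 310 liver-led, 83 to 89 brain-led, 57 to 69 heart-led, 220 to 259 muscle-led and 238 to 276 striated-led members. With the mouse as replicate block, the pairing hardly moved the counts: 2904 members passed the tissue F-test against 2908 without it, the classes held 293, 85, 63, 234 and 250 members, and genotype had 0. All 104 alternatives of the genotype tests gave 0 members in limma. Those that left out 1 array or mouse had 9 to 348 members at an unadjusted p under 0.05, counted for members alone. The 35 named leads and genotype differences kept direction and call in all 853 alternatives, with a smallest adjusted genotype p of 0.14 in limma. They were picked from the same data as the largest leads and smallest p, which favours this outcome. In the 213 alternatives of the genotype differences, what was kept was the absence of a call. The deposited score table and, for the number of members, normexp were not run, since neither gives a detection flag or value for the region probes. Signal over background limits the dimmest members, whose levels lie near the faintest detected signal of liver and muscle arrays.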

Other observations

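In muscle, 1 array stood far from the rest at the probe of chr17:6265275-6362150 (F), which is named above for its liver values. Its muscle level was 4.81 in WT mouse D, and the median over the 6 muscle arrays was -2.77 with a lowest value of -3.04. In the liver, brain and heart of the same mouse the probe was not raised in this way, since no array of those tissues exceeded -1.68. The interval holds no other member to set beside it.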
